A study of Mus musculus with 6 samples.

Results

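A set of 8 chemokine genes of the CXC family was described in mouse liver macrophages: Cxcl1, Cxcl2, Cxcl3, Cxcl12, Cxcl13, Cxcl14, Cxcl16 and Pf4 (Cxcl4). They were chosen by gene name from the 14918 genes of the deposited table, and all 8 were present and passed the low-count filter. The interferon-induced CXC ligands Cxcl9, Cxcl10 and Cxcl11 are not among them and come with the other genes of the pathway. The table covers 6 RNA-seq libraries of liver macrophages from C57BL/6 mice, 3 from mice given a high fat diet (HFD) for 18 weeks and 3 from mice given a normal diet (ND) for the same time. Both groups were about 6 weeks old when the diets began, and no other treatment or allele is named for either. Each library was taken as 1 mouse, so p-values measure the spread between these libraries, and the sources used here do not say how the macrophages were isolated.

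Chemokines are small secreted proteins that direct the movement of leukocytes through G protein-coupled receptors. Cxcl1, Cxcl2 and Cxcl3 bind Cxcr2, which neutrophils carry, and their genes are transcribed soon after inflammatory signals through NF-kappaB. Cxcl12 holds leukocytes and precursors through Cxcr4, Cxcl13 attracts B cells through Cxcr5, Cxcl16 is a membrane-bound ligand of Cxcr6 that proteases can shed, and Pf4 is best known as a platelet granule protein. In the liver, Kupffer cells (resident macrophages) are one source of Cxcr2 ligands, while stromal and endothelial cells are known sources of Cxcl12.

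Pf4, Cxcl3, Cxcl1 and Cxcl2 lie in this order on the plus strand of chromosome 5 (mm10), at 90772435 to 90773381, 90786103 to 90788086, 90891241 to 90893115 and 90903899 to 90905909, and all are protein coding. In the GENCODE annotation, Cxcl15 lies between Cxcl3 and Cxcl1, and Ppbp and Cxcl5 lie before Pf4. Cxcl13 lies further along chromosome 5 (95956928 to 95961067), Cxcl12 on chromosome 6 (117168535 to 117181367), Cxcl14 on chromosome 13 (56288647 to 56296551) and Cxcl16 on chromosome 11 (70453983 to 70459984). As a description of the cluster, the sequences just before the RefSeq starts of these 4 clustered genes are shown. They are RefSeq sequences of GRCm38.p6, plus strand, from base -130 to base -21 before the RefSeq start. The capitals mark the 2 longest runs of letters that the 250 bases before the starts of Cxcl1, Cxcl2 and Cxcl3 share on this strand. The first, GGGAATTTCCC, holds an NF-kappaB site of the classical form, the second, ATAAAAGG, is TATA-box-like, and they do not overlap.
Cxcl1: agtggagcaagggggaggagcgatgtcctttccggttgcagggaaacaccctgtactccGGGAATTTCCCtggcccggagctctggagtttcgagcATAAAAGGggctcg
Cxcl2: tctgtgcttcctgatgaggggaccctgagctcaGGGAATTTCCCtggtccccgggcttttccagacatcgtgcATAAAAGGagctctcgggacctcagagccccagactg
Cxcl3: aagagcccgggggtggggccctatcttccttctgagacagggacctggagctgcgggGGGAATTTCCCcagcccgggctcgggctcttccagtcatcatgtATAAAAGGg
Pf4: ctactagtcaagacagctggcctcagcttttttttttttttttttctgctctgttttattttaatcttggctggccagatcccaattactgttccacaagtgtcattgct
The stretches cover chr5:90891115-90891224 for Cxcl1, chr5:90903769-90903878 for Cxcl2, chr5:90785971-90786080 for Cxcl3 and chr5:90772305-90772414 for Pf4. GENCODE starts Cxcl2 earlier than RefSeq, at 90903871, so the end of its stretch lies inside the gene as annotated there. The first run ended 26 bases before the second in Cxcl1, 29 bases before it in Cxcl2 and 33 bases before it in Cxcl3. Counted from the RefSeq start, the second run lay at bases -34 to -27 in Cxcl1, -57 to -50 in Cxcl2 and -29 to -22 in Cxcl3. In windows from 250 bases before to 50 bases after each start, searched on both strands, 14 of 32851 (0.0426%) held GGGAATTTCCC and 577 (1.76%) held ATAAAAGG. Both were found in 3 windows (0.00913%), those of Cxcl1, Cxcl2 and Cxcl3, from which the letters were taken. Windows were at hand for 7 of the 8 genes, and those of Pf4, Cxcl12, Cxcl13 and Cxcl14 held neither run. The bearing of these runs on the levels in the libraries was not tested.

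Levels of different genes were compared as the authors' deposited FPKM, which is scaled by gene length. Cxcl2 was the highest of the 8 in all 6 libraries, with 178, 211 and 263 FPKM in HFD replicates 1 to 3 and 295, 147 and 206 FPKM in ND replicates 1 to 3. Its lowest library lay above the highest of Cxcl16 (67.9 to 91.4 FPKM over the 6 libraries). Cxcl16 was followed by Cxcl13 (34.6 to 98.8 FPKM), Pf4 (17.9 to 66.1 FPKM) and Cxcl1 (16.6 to 40.0 FPKM). Each of these overlapped the next in the order, and Cxcl16 exceeded Cxcl13 in 3 of the 6 libraries. Cxcl14 (10.9 to 21.8 FPKM) was below Cxcl1 in 5 of 6 libraries and above Cxcl12 (3.34 to 9.99 FPKM) in all 6, without overlap. Cxcl12 and Cxcl3 (1.24 to 7.004 FPKM) overlapped at the low end, with Cxcl12 higher in 4 libraries. The place of Pf4 next to Cxcl1 differed between libraries and overlapped between the diets. Pf4 was above Cxcl1 in the 3 HFD libraries and in ND replicate 2, and below it in ND replicates 1 and 3.

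**Figure D1:**
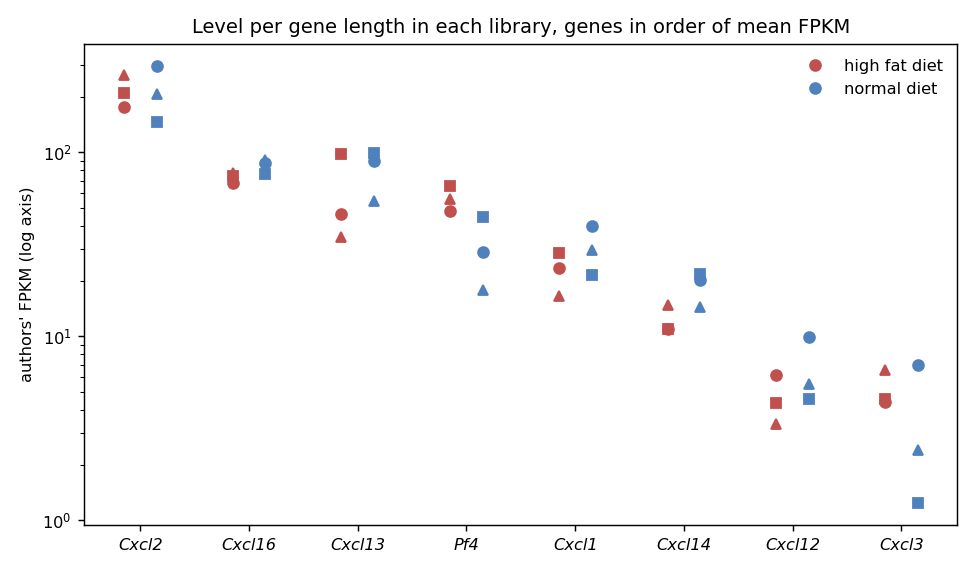
The authors' FPKM (log axis) of the 8 genes in each library, HFD (red) left of ND (blue), with circles, squares and triangles for replicates 1 to 3. Cxcl2 stands apart at the top, between 147 and 295 FPKM, and Cxcl3 spreads most, between 1.24 and 7.004 FPKM in the ND libraries.

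None of the 8 genes passed the test for a diet difference, an adjusted p of 0.05 in edgeR's quasi-likelihood test over all 14361 genes tested (CPM, used below, are counts over library sizes scaled by TMM). Over all genes 91 passed, 0.634% of those tested, so a count of 0 among 8 genes says little about these genes. DESeq2 and limma voom also called 0 of the 8, beside 8.72% and 0.564% of all genes, and the authors' deposited table had 0 of the 8 under an adjusted p of 0.05, beside 7.98% of its genes. At an unadjusted p under 0.05 in edgeR, 3 of the 8 (37.5%) stood out, Pf4 higher and Cxcl14 and Cxcl16 lower on the HFD, beside 18.6% of all genes. The log2 fold change, HFD over ND, was negative for 6 of the 8 and had a median of -0.34, against 0.00 over all genes, of which 49.98% were positive. The 3 libraries of one diet all lay on one side of the other 3 for 1 of the 8 genes, Pf4 (12.5%), and for 25.3% of all genes. Because these are libraries of bulk RNA, fewer cells of a type and less RNA per cell cannot be told apart.

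**Figure D2:**
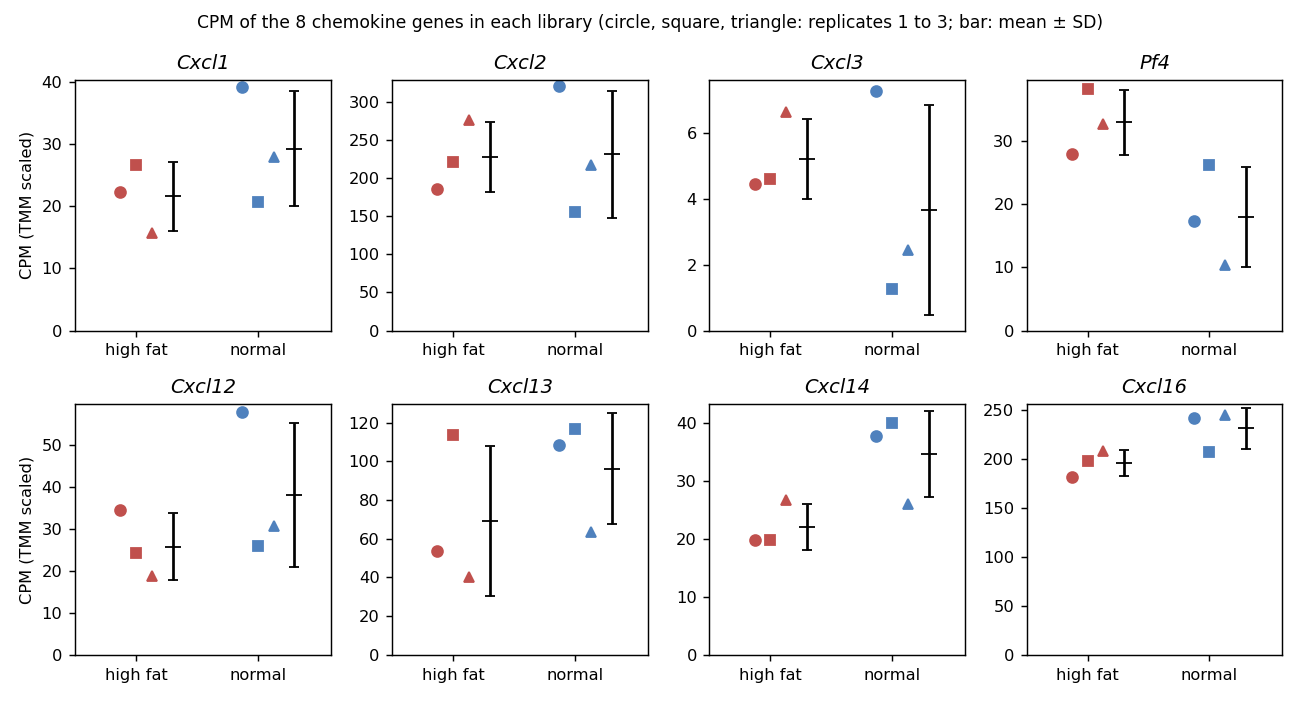
CPM of each gene in the 3 HFD libraries (red, left) and the 3 ND libraries (blue, right), with circles, squares and triangles for replicates 1 to 3 and a bar for the mean ± SD. Pf4 is the one gene whose diets do not overlap, at 27.9 to 38.3 CPM on the HFD and 10.4 to 26.2 CPM on the ND.

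The libraries differed in other ways that bear on these values. Total counts lay between 17470439 and 23610956. Markers of Kupffer cells and macrophages were abundant in every library, with Clec4f, the lectin that defines Kupffer cells, at 5835 to 7441 CPM on the HFD and 5966 to 10380 CPM on the ND. The labels name liver macrophages and not Kupffer cells. All 13 hepatocyte markers tested had positive log2 fold changes, with a summed level of 4712 to 7977 CPM on the HFD and 534 to 2568 CPM on the ND, and 1, Cyp3a11, passed the test. Sinusoidal endothelial markers summed to 1965 to 2395 CPM on the HFD and 2563 to 4667 CPM on the ND (8 of 9 negative, 0 called). Neutrophil markers summed to 291 to 332 CPM on the HFD and 193 to 204 CPM on the ND (9 of 9 positive, 3 called). Most of both sums was Csf3r, at 198 to 207 CPM on the HFD and 159 to 183 CPM on the ND, 1.18-fold higher. The median log2 fold change of the 9 neutrophil markers was 2.55, so the sums understate the difference of most of them. Monocyte markers summed to 1316 to 1625 CPM on the HFD and 458 to 765 CPM on the ND (6 of 7 positive, 2 called higher, Fn1 and F13a1). Dendritic cell markers summed to 137 to 159 CPM on the HFD and 162 to 334 CPM on the ND (6 of 6 negative, 1 called lower, Itgae). Over all genes, 0.634% were called in edgeR. No marker was at 0 in all libraries of a diet. The part of these cells' RNA in the chemokine values was not tested.

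The 3 Cxcr2 ligands gave no diet difference beyond their spread, and each varied more within the ND than within the HFD. Cxcl2 (ENSMUSG00000058427), the most abundant neutrophil-attracting chemokine here, had 186, 221 and 276 CPM in HFD replicates 1 to 3 and 319.9, 156 and 216 CPM in ND replicates 1 to 3. The ND libraries enclosed all those of the HFD. The means were 228 ± 45.7 CPM on the HFD and 231 ± 83.1 CPM on the ND (SD, n = 3 each). The log2 fold change was -0.02 ± 0.28 (SE; edgeR adjusted p = 0.977), with a 95% interval from -0.70 to 0.66, that is from 0.615-fold to 1.58-fold. With a hepatocyte score (the mean log2 CPM of the hepatocyte markers) added to the model it was 0.75 ± 0.25 (SE; edgeR unadjusted p = 0.0242, adjusted p = 0.643), and without ND replicate 1 it was 0.28 ± 0.21. The score lay between 6.939 and 7.746 on the HFD and between 3.885 (ND replicate 1) and 6.045 on the ND. Because it did not overlap between the diets, values adjusted for it, here and below, cannot separate diet from hepatocyte RNA.

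Cxcl1 (ENSMUSG00000029380), the other main Cxcr2 ligand of mouse macrophages, had 22.4, 26.7 and 15.8 CPM in HFD replicates 1 to 3 and 39.2, 20.7 and 27.9 CPM in ND replicates 1 to 3. HFD replicate 3 was the lowest and ND replicate 1 the highest, and the diets overlapped. Its log2 fold change was -0.44 ± 0.28 (SE; edgeR adjusted p = 0.456), with a 95% interval from -1.12 to 0.24. The value was 0.11 ± 0.39 adjusted for the hepatocyte score and -0.19 ± 0.25 without ND replicate 1.

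Cxcl3 (ENSMUSG00000029379) was the scarcest, with 93, 81 and 157 reads in HFD replicates 1 to 3 and 144, 24 and 49 reads in ND replicates 1 to 3. In CPM these were 4.43, 4.59 and 6.61 on the HFD, and 7.26, 1.26 and 2.44 on the ND. ND replicates 2 and 3 lay below all HFD libraries and ND replicate 1 above them. The 24 reads of ND replicate 2 have an exact Poisson 95% interval of 15.4 to 35.7, which covers counting error only and does not reach the 81 reads of the lowest HFD library. Its log2 fold change was 0.51 ± 0.61 (SE; edgeR adjusted p = 0.696), with a 95% interval from -0.95 to 1.97. It was 1.48 ± 0.38 without ND replicate 1 (adjusted p = 0.181), 0.09 ± 0.48 without ND replicate 2 (0.925), and 2.44 ± 0.54 adjusted for the hepatocyte score (0.449). The biological coefficient of variation of Cxcl3 was 51.4%, against 28.6% for the trend at its abundance.

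Within libraries, Cxcl2 and Cxcl1 kept a nearly fixed ratio of CPM in 5 of the 6. It was 8.31, 8.27 and 17.5 in HFD replicates 1 to 3 and 8.16, 7.5 and 7.76 in ND replicates 1 to 3. HFD replicate 3 stood apart, with the second highest Cxcl2 and the lowest Cxcl1 of the 6. The ratio of Cxcl2 to Cxcl3 was 41.9, 48.1 and 41.8 in HFD replicates 1 to 3 and 44.0, 123 and 88.8 in ND replicates 1 to 3. ND replicates 2 and 3 therefore held less Cxcl3 per Cxcl2 than the other 4 libraries. The 3 genes are close paralogs. Of the 50-base words in the annotated transcripts of Cxcl2 and Cxcl3, 126 were shared (5.84% of those of Cxcl2 and 3.51% of those of Cxcl3), and Cxcl1 shared none with any other gene, so reads may pass between Cxcl2 and Cxcl3 to a small extent.

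Pf4 (ENSMUSG00000029373), which macrophages also transcribe, was the one member with diets that did not overlap. It had 27.9, 38.3 and 32.7 CPM in HFD replicates 1 to 3 and 17.3, 26.2 and 10.4 CPM in ND replicates 1 to 3. The highest ND library, replicate 2, came within 2 CPM of the lowest HFD library, replicate 1. The means were 33.0 ± 5.21 CPM on the HFD and 18.0 ± 7.90 CPM on the ND (SD, n = 3 each), and the log2 fold change was 0.87 ± 0.33 (SE; edgeR unadjusted p = 0.0356, adjusted p = 0.229). The 95% interval ran from 0.08 to 1.67, that is from 1.06-fold to 3.18-fold. Without ND replicate 2, which brought the largest number of calls over all genes (1385, 9.44%), Pf4 was called higher, at 1.24 ± 0.26 (SE; edgeR adjusted p = 0.0467), the sole member called there. With any other library left out, the value lay between 0.60 and 0.96 and the adjusted p between 0.245 and 0.475, and adjusted for the hepatocyte score it was 0.92 ± 0.56. DESeq2 gave an adjusted p of 0.0885.

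The table used here holds 3 of the 11 platelet markers, and none of these was set apart by diet as Pf4 was. Itga2b, the platelet integrin alpha IIb, had 4.62, 3.45 and 3.41 CPM in HFD replicates 1 to 3 and 4.24, 1.58 and 4.63 CPM in ND replicates 1 to 3. Gp1ba stood between 0.680 and 1.31 CPM on the HFD and between 0.846 and 1.53 CPM on the ND. Both were scarce, with 30 to 97 reads per library for Itga2b and 12 to 31 for Gp1ba. Clec1b, which Kupffer cells also express, stood at 266 to 316 CPM on the HFD and 252 to 346 CPM on the ND. Their log2 fold changes were 0.14 ± 0.41, -0.18 ± 0.38 and -0.05 ± 0.13 (SE; edgeR adjusted p = 0.890, 0.834 and 0.867). Itga2b was lowest in ND replicate 2, the ND library highest in Pf4. Gp1ba and Clec1b were instead highest of all libraries in ND replicate 2, and within the ND lowest in replicate 3, as Pf4 was. The part of platelet RNA in the Pf4 value was not tested.

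**Figure D3:**
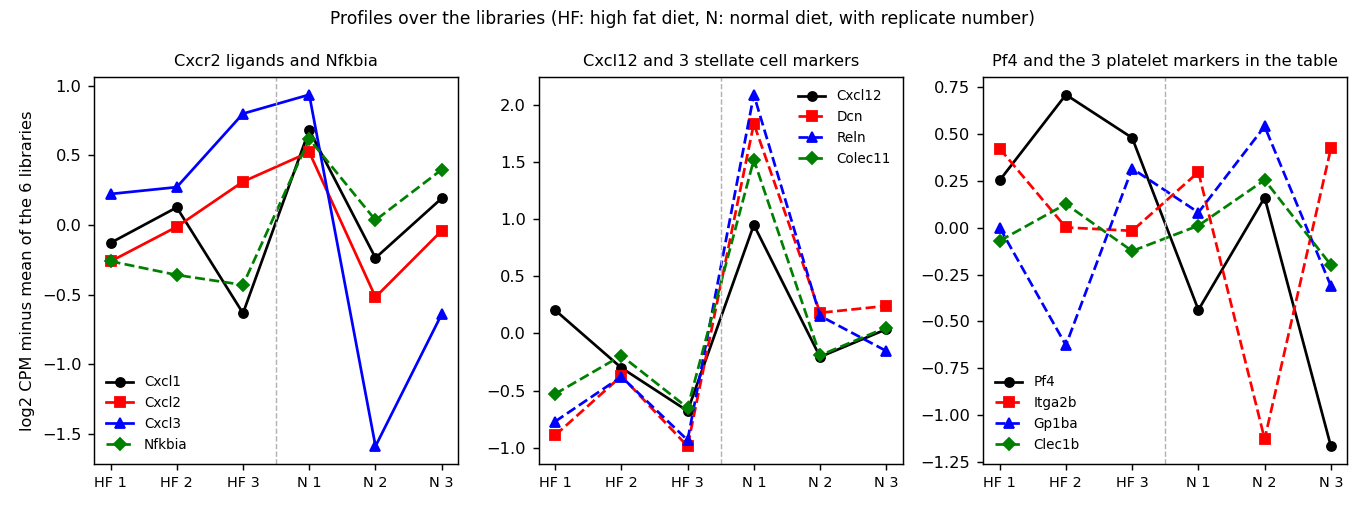
Log2 CPM of each gene minus its mean over the 6 libraries, with HFD replicates 1 to 3 left of the dashed line and ND replicates 1 to 3 right of it (lines join the points of a gene and show no order in time). Cxcl1, Cxcl2, Cxcl3 and Nfkbia are all highest in ND replicate 1. Cxcl12 is highest there together with 3 stellate cell markers picked after their values were seen. Pf4 and Clec1b are lowest in ND replicate 3, Itga2b in ND replicate 2 and Gp1ba in HFD replicate 2. Gp1ba and Clec1b are highest in ND replicate 2.

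Cxcl14 and Cxcl16 stood lower in the HFD libraries, but neither passed. Cxcl14 (ENSMUSG00000021508), a chemokine whose receptor is not settled, had 19.8, 19.8 and 26.7 CPM in HFD replicates 1 to 3 and 37.8, 40.0 and 26.1 CPM in ND replicates 1 to 3. The overlap came from 2 libraries, HFD replicate 3 and ND replicate 3. On the log2 scale the difference was -0.65 ± 0.20 (SE; edgeR unadjusted p = 0.0149, adjusted p = 0.164), with a 95% interval from -1.12 to -0.17. This was the smallest p of the 8 genes, and DESeq2 gave an adjusted p of 0.0535, which also missed the threshold. Adjusted for the hepatocyte score the value was -0.42 ± 0.31 (SE; edgeR unadjusted p = 0.229).

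Cxcl16 (ENSMUSG00000018920), made by macrophages as a membrane-bound scavenger receptor and chemokine, was the steadiest of the 8. It had 182, 198 and 208 CPM in HFD replicates 1 to 3 and 242, 207 and 245 CPM in ND replicates 1 to 3. The diets overlapped by about 1 CPM, between HFD replicate 3 and ND replicate 2. The means were 196 ± 13.3 CPM on the HFD and 232 ± 21.2 CPM on the ND (SD, n = 3 each), 1.18-fold lower on the HFD, with a log2 fold change of -0.24 ± 0.10 (SE; edgeR unadjusted p = 0.0447, adjusted p = 0.253). Its biological coefficient of variation, 11.5%, was below the trend of 15.2% at its abundance, and it was the sole member for which this held. The adjusted p fell to 0.0596 without ND replicate 2 and was at least 0.372 with any other library left out. Adjusted for the hepatocyte score the value was -0.12 ± 0.16 (SE; edgeR unadjusted p = 0.473). The first 552 bases of Cxcl16 (chromosome 11, 70459433 to 70459984) overlap Zmynd15 on the other strand, and 503 of the 2973 50-base words of Cxcl16 transcripts also occur there. No strand-keeping step is named in the protocol, so the source of reads there cannot be told apart.

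Cxcl12 and Cxcl13 did not pass, and for each leaving out 1 library moved the difference by over 1.5 times. Cxcl12 (ENSMUSG00000061353), the Cxcr4 ligand, had 34.5, 24.3 and 18.7 CPM in HFD replicates 1 to 3 and 57.8, 25.9 and 30.7 CPM in ND replicates 1 to 3. ND replicate 1 stood above all others, and the remaining ND libraries lay within the range of the HFD. The log2 fold change was -0.56 ± 0.36 (SE; edgeR adjusted p = 0.458), -0.15 ± 0.26 without ND replicate 1 and 0.14 ± 0.54 adjusted for the hepatocyte score. Stellate and stromal markers had their highest sum in the same library. Dcn, a stromal proteoglycan, had 14.3, 20.6 and 13.4 CPM in HFD replicates 1 to 3 and 94.9, 30.2 and 31.4 CPM in ND replicates 1 to 3. Col1a1, a collagen gene, was at 1.33, 3.79 and 5.14 CPM on the HFD and 4.49, 1.42 and 2.34 CPM on the ND. It was the sole marker of this list with a positive log2 fold change (0.32 ± 0.59, SE). Of the 10 markers tested, 9 had negative log2 fold changes and 0 passed. The 10 summed to 193 to 232 CPM on the HFD and 194 to 432 CPM on the ND. Ecm1 was the largest part of the sum in every library, at 143 to 176 CPM on the HFD and 123 to 207 CPM on the ND (-0.08 ± 0.20, SE). The median log2 fold change of the list was -0.77, so the sums understate the difference of most of these markers. In 5 of the 10 all HFD libraries lay below all ND libraries, and 25.3% of all genes lay apart in either direction. The part of stellate and stromal RNA in the Cxcl12 value was not tested.

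Cxcl13 (ENSMUSG00000023078), the Cxcr5 ligand, had 53.6, 113 and 40.3 CPM in HFD replicates 1 to 3 and 108, 117 and 63.4 CPM in ND replicates 1 to 3. HFD replicate 2 matched the 2 higher ND libraries, while the other 2 HFD libraries were the lowest of the 6. The log2 fold change was -0.48 ± 0.43 (SE; edgeR adjusted p = 0.594), and -1.03 ± 0.31 without HFD replicate 2 (unadjusted p = 0.0186, adjusted p = 0.287). Adjusted for the hepatocyte score it was -0.13 ± 0.69, and without HFD replicate 3 it was -0.20 ± 0.41. Its biological coefficient of variation was 36.4%, against 15.4% for the trend at its abundance. B cell markers, which go with the cells that Cxcl13 attracts, summed to 55.0 to 78.6 CPM on the HFD and 52.3 to 65.4 CPM on the ND.

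**Figure D4:**
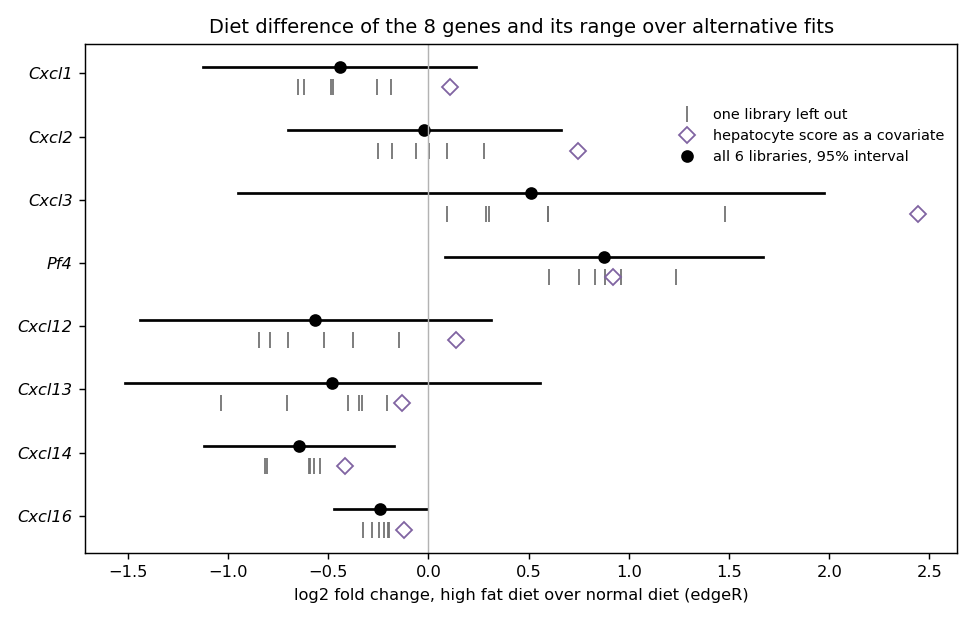
Log2 fold change of each gene, HFD over ND, from edgeR on all 6 libraries with its 95% interval (black), with 1 library left out (grey ticks) and adjusted for the hepatocyte score (open diamonds). The intervals of Pf4, Cxcl14 and Cxcl16 leave out 0 before adjustment, and the value of Cxcl3 runs from 0.09 to 2.44.

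The other genes of the CXC system came from 7 lists of 47 genes, of which 42 were tested. Of these, 2 rose on the HFD (0.446% of all genes rose) and 0 fell, with a median log2 fold change of -0.10. Both that rose are metalloproteinases able to cut chemokines, and Mmp8 is also 1 of the 3 neutrophil markers that passed. Mmp8, the neutrophil collagenase, had 6.05, 4.93 and 7.29 CPM in HFD replicates 1 to 3 and 0.858, 0.632 and 1.44 CPM in ND replicates 1 to 3 (edgeR adjusted p = 0.0430). Mmp12, the macrophage elastase, had 238, 227 and 389 CPM on the HFD and 64.2, 42.5 and 53.6 CPM on the ND (edgeR adjusted p = 0.0415). The log2 fold changes were 2.63 ± 0.35 for Mmp8 and 2.41 ± 0.27 for Mmp12 (SE). The diets did not overlap in either, nor in 25.3% of all genes. The adjusted p of Mmp8 rose to between 0.119 and 0.184 without any one of 4 libraries (ND replicate 1 or a HFD library). That of Mmp12 was between 0.0782 and 0.148 without any one library other than ND replicate 2. Adjusted for the hepatocyte score, Mmp8 was at 2.44 ± 0.59 and Mmp12 at 2.86 ± 0.38 (SE; edgeR adjusted p = 0.481 and 0.271), and with 1 library left out the log2 fold changes lay between 2.39 and 3.02 for Mmp8 and between 2.12 and 2.56 for Mmp12. The part of the neutrophil and monocyte RNA given above in these values was not tested. Adam10 and Adam17, the sheddases of Cxcl16, differed by 0.13 ± 0.15 and 0.10 ± 0.08 on the log2 scale, and Dpp4, which trims Cxcl12, by -0.58 ± 0.36 (SE; edgeR adjusted p = 0.691, 0.569 and 0.443). Without ND replicate 3 the value of Dpp4 was -0.11 ± 0.22.

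Of the CXC receptors, 5 of 6 were tested and 0 passed in edgeR. At an unadjusted edgeR p under 0.05 there were 2 of them, both higher, beside 18.6% of all genes. Cxcr2, the receptor of Cxcl1, Cxcl2 and Cxcl3, had 4.48, 1.92 and 2.69 CPM in HFD replicates 1 to 3 and 0.504, 0.211 and 1.04 CPM in ND replicates 1 to 3, without overlap (log2 fold change 2.35 ± 0.58, SE; edgeR adjusted p = 0.110, DESeq2 0.00420). Cxcr4, the receptor of Cxcl12, had 187, 166 and 238 CPM on the HFD and 132, 82.2 and 140.2 CPM on the ND, also without overlap (0.74 ± 0.23, SE; edgeR adjusted p = 0.176, DESeq2 0.0356). Over all genes, the diets did not overlap in 25.3%, and DESeq2 called 8.72%. Neutrophil markers were higher in the same HFD libraries as Cxcr2, with S100a8 at 16.8, 13.5 and 14.6 CPM there and 2.17, 1.84 and 3.78 CPM on the ND, and their part in the Cxcr2 value was not tested. Of the 5 atypical receptors, which bind chemokines without G protein signalling, 0 passed (DESeq2 0, and 0 had an edgeR unadjusted p under 0.05). Ackr1 and Ackr4 had the smallest p-values, at -0.55 ± 0.50 and -0.48 ± 0.51 on the log2 scale (SE; edgeR adjusted p = 0.596 and 0.654). Without ND replicate 3 they were -0.18 ± 0.52 for Ackr1 and 0.28 ± 0.33 for Ackr4, whose sign turned.

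Among the other CXC ligands, the interferon-induced Cxcl9, Cxcl10 and Cxcl11 were tested and 0 passed in edgeR. At an unadjusted edgeR p under 0.05 there were 2 of these, both lower, beside 18.6% of all genes. Cxcl9 had 49.95, 46.1 and 70.9 CPM in HFD replicates 1 to 3 and 202, 61.2 and 180.0 CPM in ND replicates 1 to 3. Cxcl10 had 41.8, 51.1 and 60.5 CPM on the HFD and 127, 47.8 and 132 CPM on the ND. In both, ND replicate 2 lay among the HFD libraries. The log2 fold changes were -1.41 ± 0.45 and -1.002 ± 0.39 (SE; edgeR adjusted p = 0.178 and 0.241), and DESeq2 called Cxcl9 (0.00843). Without ND replicate 2 both fell, by 1.79 and 1.35 on the log2 scale (edgeR adjusted p = 0.0119 and 0.00812), beside 9.44% of all genes called there. With any other library left out, the edgeR adjusted p was 0.312 to 0.418 for Cxcl9 and 0.384 to 0.501 for Cxcl10.

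In a list of 7 genes holding NF-kappaB subunits (Rela, Nfkb1), genes that act on NF-kappaB and genes of mRNA decay, 6 had negative log2 fold changes and 0 passed. DESeq2 called 2, beside 8.72% of all genes, and 2 had an edgeR unadjusted p under 0.05, beside 18.6% of all genes. Nfkbia had 359, 335 and 319 CPM in HFD replicates 1 to 3 and 659.7, 440.4 and 566 CPM in ND replicates 1 to 3 (log2 fold change -0.72 ± 0.15, SE; edgeR adjusted p = 0.0844, DESeq2 0.00103). Its diets did not overlap, nor did those of 25.3% of all genes. Nfkbiz, the co-activator I kappa B zeta, had 192, 188 and 211 CPM on the HFD and 345, 217 and 338 CPM on the ND (-0.61 ± 0.18, SE; edgeR adjusted p = 0.156, DESeq2 0.0298). The median of the 7 was -0.49, next to -0.02, -0.44 and 0.51 for Cxcl2, Cxcl1 and Cxcl3. Zfp36, whose protein speeds the decay of such mRNAs, had a log2 fold change of -0.17 ± 0.17 (SE; edgeR adjusted p = 0.639). Beside the 3 Cxcr2 ligands, 3 tested genes had GGGAATTTCCC in their promoter window, Hpn, Il16 and Zfp84, at 0.72 ± 0.25, 0.18 ± 0.19 and 0.24 ± 0.18 on the log2 scale (SE; edgeR adjusted p = 0.201, 0.659 and 0.520).

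Of 9 transducers of receptor signals, 0 passed (DESeq2 0, and 2 had an edgeR unadjusted p under 0.05). Over all genes, DESeq2 called 8.72% and 18.6% had an edgeR unadjusted p under 0.05, here and for the next list. Pik3cg, the G protein-activated PI3 kinase gamma, had 62.2, 63.6 and 64.6 CPM in HFD replicates 1 to 3 and 48.1, 59.3 and 43.1 CPM in ND replicates 1 to 3 (log2 fold change 0.34 ± 0.12, SE; edgeR adjusted p = 0.203). Rgs2, which shortens G protein signals, had -0.30 ± 0.12 (SE; 0.256). Of 6 genes for glycosaminoglycan chains and their core proteins, to which chemokines bind, 0 passed (DESeq2 called 1, and 1 had an edgeR unadjusted p under 0.05). Sdc1, a syndecan, had 27.4, 24.0 and 35.8 CPM on the HFD and 14.9, 7.32 and 19.4 CPM on the ND (1.06 ± 0.36, SE; edgeR adjusted p = 0.192, DESeq2 0.0336), and Sdc4 had 0.48 ± 0.21 (SE; edgeR adjusted p = 0.291).

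The profiles of the members over the 6 libraries were compared as the root mean square difference of log2 CPM after centring each gene on its mean, in which 0 would be an identical profile. The members nearest to each other were Cxcl1 and Cxcl12 (0.255), then Cxcl2 and Cxcl16 (0.297), and the farthest were Cxcl13 and Cxcl3 (1.18). Pf4 was no nearer than 0.756 to any other member. Among the Cxcr2 ligands, Cxcl2 was 0.424 from Cxcl1 and 0.580 from Cxcl3. Cxcl1 and Cxcl3 (0.865) were farther apart than Cxcl2 and Pf4 (0.757). Among 10252 other genes averaging at least 5 CPM, predicted gene models left out, the nearest to Cxcl2 was Slc35e4 (0.110), to Cxcl1 Cbarp (0.1), to Cxcl3 Ltbp3 (0.400, of 10253) and to Pf4 Lpar5 (0.185). Those nearest to Cxcl12, Cxcl13, Cxcl14 and Cxcl16 were Zfp64 (0.180), Siglece (0.282), Myc (0.094) and Xpo1 (0.020). The second nearest, in the order Cxcl2, Cxcl1, Cxcl3, Pf4, Cxcl12, Cxcl13 and Cxcl16, were Slc7a6, Jmy, Bst1, Adgrl3, Arvcf, Slc27a3 and Zup1, at 0.125, 0.131, 0.402, 0.213, 0.223, 0.303 and 0.030. These nearest genes are a description over 6 libraries.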

How the data were processed

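Read counts, FPKM and a comparison of the diets were taken from 1 table of 14918 genes. The authors deposited raw read counts per gene and library as whole numbers, FPKM (reads scaled by gene length and library size), and their own log2 fold changes with p-values and adjusted p-values, per the file headers. The submitters' processing notes name the mm10 build, the aligners STAR and HISAT2, and featureCounts, StringTie, STAR-Fusion, DESeq and edgeR. Which role and settings each had, and how reads mapping to several genes were counted, is not stated in the sources used here. By the labels' protocols, mRNA was selected on oligo(dT) beads and primed with random hexamers.

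Counts were tested with edgeR 4.0.16 (R 4.3.3): TMM scaling, the default low-count filter (14361 genes left), a robust quasi-likelihood fit, and Benjamini-Hochberg adjustment over all genes. The common biological coefficient of variation was 20.9%. The SE is the log2 fold change over the square root of F, and 95% intervals use the fit's degrees of freedom. Alternatives were DESeq2 1.42.0, limma voom 3.58.1, other scalings and filters, each library left out in turn, and a covariate (the hepatocyte score). The members and lists were chosen with earlier results of these data known. Beside the 8 members, the genes named are the pathway genes that passed or the 2 of smallest p in each list, the 2 genes of nearest profile (for Cxcl14 the second is not reported here), and markers beside the results they touch. Other genes named (such as Adam10, Adam17, Dpp4, Zfp36, Dcn, Gp1ba, Clec1b, Hpn and Marco) were added after their values were seen. The labels give no replicate numbers; libraries were numbered in accession order within a diet. Gene symbols were matched by identifier to GENCODE for 14842 genes.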

Additional observations from a re-analysis of the deposited data

How the results depend on the processing

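The count of genes called was 91 with all libraries and 1204 in DESeq2, while it was 0 adjusted for the hepatocyte score in edgeR (997 at an unadjusted p under 0.05). That score did not overlap between the diets, so the adjusted fit cannot separate diet from hepatocyte RNA. With 1 library left out the count of genes called ranged from 0 to 1385, and the count of members called from 0 to 1 (Pf4, without ND replicate 2). In the other alternatives run, 0 members were called. The level order was the same with counts per kilobase. Cxcl13, Cxcl14, Cxcl16 and Pf4 kept their sign under all 15 alternatives, and Cxcl3 under the 14 it could be tested in (it did not pass the filter of 5 CPM). Cxcl1 and Cxcl12 changed sign, uncalled, with the covariate alone, and Cxcl2 in 6 of 15. No paired analysis was possible because the labels give no shared replicate numbers. Adjusted for the hepatocyte score, Cxcl13, Cxcl14 and Cxcl16 were nearer to 0 by over 1.5 times. With 3 libraries per diet, the 95% intervals reached past a 2-fold difference for every member but Cxcl2 and Cxcl16. Depth limits Cxcl3 most, with 24 reads in its lowest library.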

Other observations

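Marco, a scavenger receptor of Kupffer cells, was highest in HFD replicate 2, the HFD library highest in Cxcl13, while ND replicate 2 had the highest Cxcl13 and the lowest Marco of the 6 libraries. It had 386, 1705 and 502 CPM in HFD replicates 1 to 3 and 415, 316 and 336 CPM in ND replicates 1 to 3, with a log2 fold change of 1.28 ± 0.57 (SE; edgeR adjusted p = 0.294). Marco was picked after the values were seen.

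Genes transcribed soon after cell stimulation or stress stood lower on the HFD in both lists at hand. All 12 immediate early genes had negative log2 fold changes (median -0.48) and 1 passed, Egr1, at 139, 113 and 121 CPM in HFD replicates 1 to 3 and 221, 202 and 235 CPM in ND replicates 1 to 3 (-0.82 ± 0.10, SE; edgeR adjusted p = 0.0420). Of the 12, 8 had an unadjusted edgeR p under 0.05, and DESeq2 called Fosb, Jun, Egr1, Ier2, Ier3 and Socs3. Fos had 853, 849.5 and 1544 CPM on the HFD and 1401, 1711 and 1131 CPM on the ND and did not pass (0.507). All 6 heat shock genes were negative (median -0.59), with 0 called in edgeR (DESeq2 called 6, and 6 had an unadjusted edgeR p under 0.05). Over all genes, edgeR called 0.634%, DESeq2 called 8.72%, and 18.6% had an unadjusted edgeR p under 0.05. The difference between these lists and the chemokines was not tested.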
